A study of Homo sapiens with 6 samples.

Results

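Cathepsins are proteases of lysosomes, endosomes and secretory granules, and the transcripts of 10 human cathepsin genes were followed here: CTSG, CTSB, CTSL, CTSK, CTSS, CTSH, CTSC, CTSZ, CTSD and CTSA. They are 10 of the 11264 genes tested and 10 of the 18665 genes with a probe of 1 gene symbol on the array. The family was selected by the CTSG difference and by the gene names, with the array values already known, so the members' differences, with their errors, are given as a description and no p-value of a member is printed. All 17 probes annotated to the 10 symbols were taken, and 16 of them were detected on all 6 arrays.

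The arrays compared cells of the human melanoma line WM-266-4 that stably carried the plasmid pEXPR-IBA103 with a CT16 cDNA with cells that carried the intact vector. CT16 (cancer-testis antigen 16) is the product of the gene PAGE5 and belongs to a class of proteins of germ cells that tumors can make. Total RNA came from 3 individual cultures with the CT16 plasmid and 3 individual cultures with the control plasmid, all kept in medium with fetal bovine serum. Both sets of cells were selected and maintained in G418, and neither the labels nor the methods say whether they were pools or clones, so an effect of CT16 and a difference between selected cell populations cannot be told apart.

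Most cathepsins are made as inactive precursors, carried to the lysosome by mannose 6-phosphate receptors and activated there by proteolysis at low pH. Cathepsins B, C, H, K, L, S and Z are cysteine proteases, cathepsin D is an aspartic protease, cathepsin A is a serine carboxypeptidase, and cathepsin G is a serine protease of the chymotrypsin family. Cathepsin G is best known as a protein of the azurophil granules of neutrophils, where it takes part in the killing of microbes, whereas the lysosomal cathepsins are made in most cells and several of them are studied in melanoma for their part in matrix breakdown and invasion.

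Values are log2 signals after background correction and quantile normalization, and differences are CT16 minus control on that scale. They can be compared between arrays for a probe but not between probes. A probe was counted as detected on an array at a detection p under 0.01. Between 16200 and 18789 probes were detected per array, fewest on CT16 replicate 3, whose estimated weight in a model of array quality was 0.0704, against 4.17 for CT16 replicate 1. Control replicate 1 had the next lowest weight, 0.335. Of 8 melanocyte lineage genes, DCT had no probe, and 6 of the other 7 were detected on all arrays, with a summed signal of 37440 to 41454 in CT16 arrays and 37551 to 40722 in control arrays. On PAGE5 probe ILMN_2363141 the transfected gene had signals of 117, 120 and 171 in CT16 arrays, against 80.7, 84.6 and 94.2 in control arrays. The groups did not overlap, and the log2 difference was 1.11 ± 0.37 (SE), with an adjusted p of 0.582 from limma, and 0.71 without CT16 replicate 3. The other 2 PAGE5 probes did not show this. ILMN_1744656 gave 75.3, 77.7 and 95.5 in CT16 arrays, against 79.7, 91.1 and 82.2 in control arrays, with overlap and a log2 difference of 0.02 ± 0.30 (SE), and ILMN_1695992 was not detected on any array. Which of the 3 probes read the cloned cDNA was not analysed, so these probe values do not decide how strongly the plasmid was expressed. By qRT-PCR and Western blot, the authors report having verified CT16 mRNA and protein in the stably transfected cells.

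CTSG was the member with the largest difference. Its only probe, ILMN_1680424, gave log2 signals of 11.66, 11.53 and 11.86 on CT16 arrays 1 to 3, against 8.90, 8.62 and 8.20 on control arrays 1 to 3. All 3 CT16 arrays lay far above all 3 control arrays, and the gene was detected on every array of both groups. Before background correction and normalization the signals were 3163, 3141 and 3842 in CT16 arrays, against 474, 476 and 359 in control arrays, with means of 3382 ± 399 (CT16) and 436 ± 67.4 (control; SD over 3 arrays each). The log2 difference was 3.11 ± 0.25 (SE), or 8.66-fold, with a 95% confidence interval of 2.53 to 3.70 on the log2 scale. By the size of its log2 difference CTSG stood in place 8 among the 11264 genes. RNA was taken from whole cultures, so a higher level in a few cells and a higher level in all cells cannot be told apart.

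The gene lies on chromosome 14 in a cluster of granule proteases, between CMA1 (mast cell chymase) and GZMH (granzyme H). The stretch before its start is shown because CTSG differed most and its promoter is known from myeloid cells as a target of the factor PU.1. It was read from the RefSeq promoter table (GRCh38.p14, chr14:24576251-24576500, minus strand, 250 bases), 5′ to 3′, with the match to the PU.1 site AGAGGAAG, on the opposite strand, in capitals:
CTSG: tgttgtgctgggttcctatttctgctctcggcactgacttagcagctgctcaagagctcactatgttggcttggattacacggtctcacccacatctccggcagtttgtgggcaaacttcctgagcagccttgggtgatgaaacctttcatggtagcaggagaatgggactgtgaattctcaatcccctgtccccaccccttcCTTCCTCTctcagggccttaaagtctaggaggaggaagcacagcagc
The match began 47 bases before the gene start. The same letters, searched on both strands, were found in the 250 bases before 3.60% of the 35116 starts in the table (1263 of 35116). No match to the C/EBP letters TTGCNNAA (9.05% of all starts) or to an NF-kB site (1.73%) was in any of the 7 member promoters that the table held. A match describes letters only, and nothing about binding in these cells was measured.

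The other 9 members had log2 differences between -0.68 and 0.12, shown array by array in the plot of the 10 genes. CTSK, CTSA, CTSH, CTSB and CTSC had lower values in every CT16 array than in any control array, CTSL had higher values in every CT16 array, and CTSD, CTSS and CTSZ overlapped. For CTSL and CTSC this held only after normalization, and the signals before it overlapped. With CTSG, the groups did not overlap with CT16 higher for 2 of 10 members, beside 6.79% of all genes tested, and did not overlap with CT16 lower for 5 of 10 members, beside 7.40% of all genes. The difference was negative for 6 members, beside 52.8% of all genes. The median difference was -0.27 over the 10 members and -0.35 without CTSG, beside -0.03 over all genes, whose differences had an SD of 0.44, and the median without CTSG was -0.15 with control replicate 1 left out. Since the members were chosen with these values in view, no test was made of these counts.

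**Figure D1:**
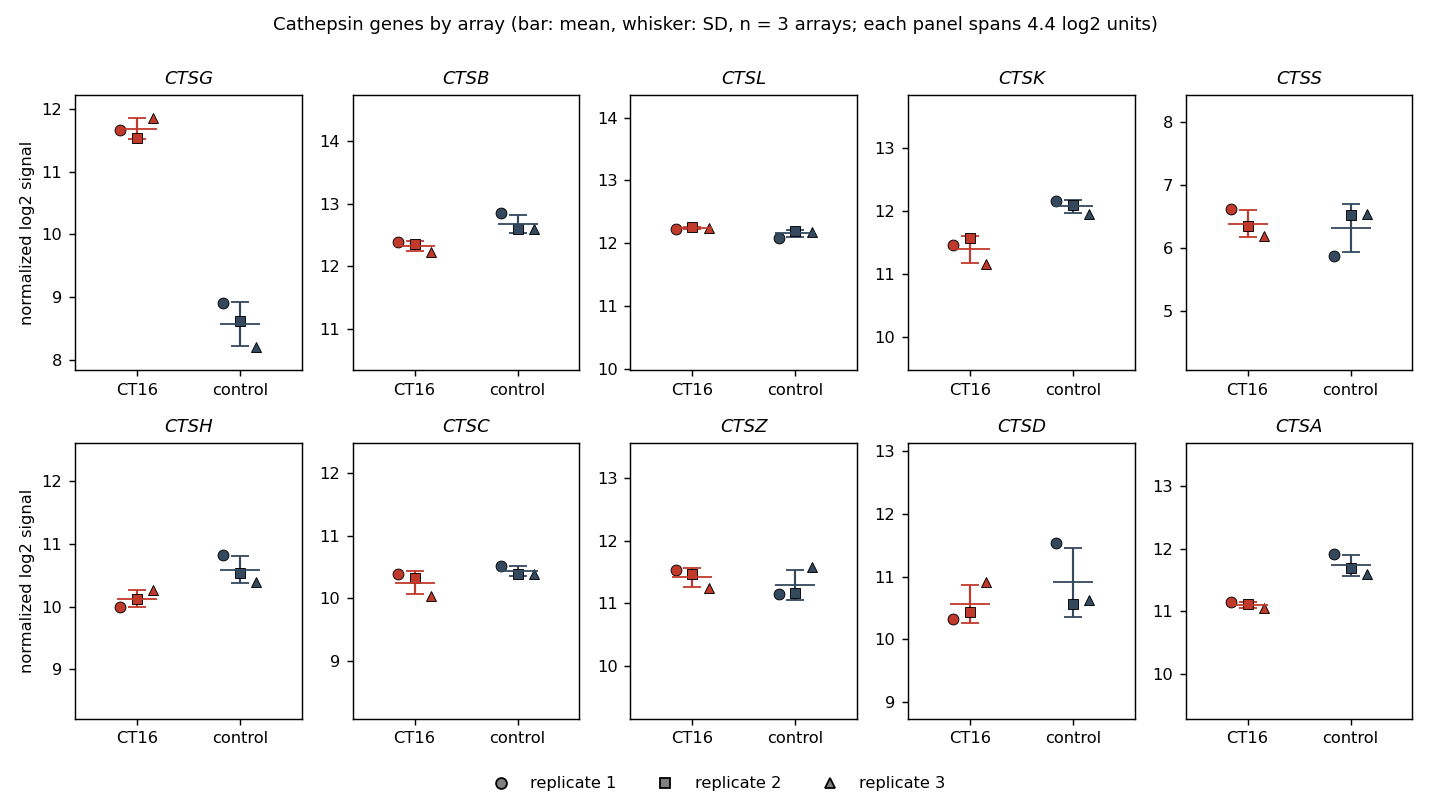
Normalized log2 signal (vertical axis, each panel spanning the same number of log2 units) of the probe standing for each cathepsin gene, with the 3 CT16 arrays left (red) and the 3 control arrays right (dark blue); symbols give the replicate, the horizontal bar the mean and the whisker the SD. CTSG stands at 11.69 ± 0.17 in CT16 arrays and 8.57 ± 0.35 in control arrays, while the group means of each other gene lie within 0.68 of each other.

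CTSK, encoding the collagen-degrading protease best known from osteoclasts, had the most negative difference. Its log2 signals were 11.46, 11.57 and 11.15 in CT16 arrays, against 12.17, 12.10 and 11.96 in control arrays. The log2 difference was -0.68 ± 0.22 (SE), with a 95% interval of -1.19 to -0.18, a level 1.61-fold lower in CT16 arrays. Its neighbour on chromosome 1, CTSS, encodes a protease that cleaves the invariant chain in antigen-presenting cells. CTSS gave 6.62, 6.35 and 6.19 in CT16 arrays, against 5.87, 6.53 and 6.54 in control arrays. The groups overlapped, with control replicate 1 lowest of all 6 arrays, and the difference was 0.07 ± 0.27 (SE, 95% interval -0.55 to 0.69). It was -0.15 without control replicate 1 and -0.04 without CT16 replicate 1, so its sign was not stable. The 2 adjacent genes thus had differences of unlike size, and the contrast between them was not tested.

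CTSA, the carboxypeptidase that also protects lysosomal beta-galactosidase and neuraminidase from breakdown, was close behind CTSK. It had log2 signals of 11.15, 11.11 and 11.06 in CT16 arrays, against 11.92, 11.69 and 11.59 in control arrays. The CT16 arrays were tightly grouped and all below the control arrays. The log2 difference was -0.63 ± 0.20 (SE, 95% interval -1.10 to -0.15), or 1.54-fold lower. CTSD, the main aspartic protease of lysosomes, gave 10.33, 10.44 and 10.91 in CT16 arrays, against 11.54, 10.56 and 10.63 in control arrays. Control replicate 1 stood 0.95 above the mean of the other 2 control arrays and the groups overlapped. The CTSD difference was -0.35 ± 0.33 (SE, 95% interval -1.12 to 0.42), and it was -0.03 without control replicate 1.

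Lysosomal genes often carry the palindromic E-box TCACGTGA, read by the factors TFEB, TFE3 and MITF, near their start. CTSA was the only member of the 7 with promoters in the table that held it, and CTSA and CTSD held its core CACGTG. The sequences around these matches are shown because these 2 genes carried the letters that link cathepsins to the regulators described further on. They come from the same table and build, 5′ to 3′, with TCACGTGA (CTSA) and CACGTG (CTSD) in capitals, from chr20:45891283-45891334 on the plus strand for CTSA and chr11:1763942-1764001 on the minus strand for CTSD:
CTSA: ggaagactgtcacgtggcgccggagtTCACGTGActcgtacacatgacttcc
CTSD: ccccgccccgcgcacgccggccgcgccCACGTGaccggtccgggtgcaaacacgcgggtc
The match began 26 bases before the start of CTSA and 47 bases before the start of CTSD. The CTSA stretch holds a second CACGTG, in lower case, that began 42 bases before the start and is not part of a TCACGTGA. Within 250 bases before the start, TCACGTGA was found for 0.854% and CACGTG, which the longer motif contains, for 6.34% of all 35116 starts, on either strand.

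CTSB and CTSH, a pair of cysteine proteases that trim peptides from the ends as well as cutting inside proteins, each had 2 probes. For CTSB, probe ILMN_2359742 gave 12.39, 12.36 and 12.23 in CT16 arrays, against 12.85, 12.59 and 12.59 in control arrays, and its difference was -0.35 ± 0.20 (SE), or 1.27-fold lower. Probe ILMN_1696360 gave 11.51, 11.50 and 11.41 in CT16 arrays, against 12.03, 11.80 and 11.77 in control arrays, and its difference was -0.39 ± 0.20 (SE), or 1.31-fold lower. Both CTSB probes had the CT16 arrays below the control arrays, and both 95% intervals included 0 (-0.82 to 0.12 and -0.86 to 0.08). For CTSH, probe ILMN_2390853 gave 10.00, 10.12 and 10.27 in CT16 arrays, against 10.83, 10.54 and 10.40 in control arrays. The groups did not overlap, and the difference was -0.46 ± 0.22 (SE, 95% interval -0.97 to 0.05), or 1.37-fold lower. The second CTSH probe, ILMN_1752451, gave 6.39, 6.55 and 7.37 in CT16 arrays, against 7.34, 6.91 and 6.55 in control arrays. Here CT16 replicate 3 stood 0.90 above the mean of the other 2 CT16 arrays, the groups overlapped, and the difference was -0.16 ± 0.34 (SE).

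CTSL, encoding the endopeptidase cathepsin L, had 3 probes, all with positive differences, and those of 2 probes were small. Probe ILMN_2374036, which stands for the gene, gave 12.23, 12.25 and 12.24 in CT16 arrays, against 12.09, 12.20 and 12.18 in control arrays, a difference of 0.08 ± 0.19 (SE, 95% interval -0.36 to 0.53). The groups did not overlap after normalization but did in the signals before it, which were 4663 to 5204 in CT16 arrays and 3990 to 4890 in control arrays. Probe ILMN_1812995, annotated to the same transcript, gave 0.06 ± 0.19 (SE). The third probe, ILMN_1694757, annotated to the other CTSL transcript, gave signals before normalization of 355, 370 and 377 in CT16 arrays, against 271, 294 and 314 in control arrays. Its difference was 0.48 ± 0.23 (SE, 95% interval -0.07 to 1.02), or 1.39-fold, and its groups did not overlap before or after normalization. Whether the probes differ from each other was not tested. The authors also measured CTSL by qRT-PCR under CT16 overexpression and report that a differential expression was not repeatable.

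CTSC, the dipeptidyl peptidase that removes the propeptides of granule proteases including cathepsin G, had 3 tested probes that did not share a sign. ILMN_1696347 gave 10.39, 10.32 and 10.04 in CT16 arrays, against 10.52, 10.39 and 10.39 in control arrays, a difference of -0.19 ± 0.21 (SE, 95% interval -0.67 to 0.30). ILMN_2242463 gave -0.08 ± 0.20 (SE) and ILMN_1792885 gave 0.03 ± 0.27 (SE). On CT16 replicate 3 the first 2 of these probes lay 0.31 and 0.19 below the mean of the other CT16 arrays and the last lay 0.62 above it. The fourth probe, ILMN_1689086, annotated to another transcript, was not detected on any array, with a mean signal of 65.8 in CT16 arrays and 63.6 in control arrays. CTSZ, encoding cathepsin Z, a carboxypeptidase also named cathepsin X, gave 11.53, 11.47 and 11.24 in CT16 arrays, against 11.15, 11.16 and 11.57 in control arrays. Control replicate 3 stood above all CT16 arrays and the other 2 control arrays below them, so the groups overlapped, and the difference was 0.12 ± 0.22 (SE, 95% interval -0.41 to 0.64).

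**Figure D2:**
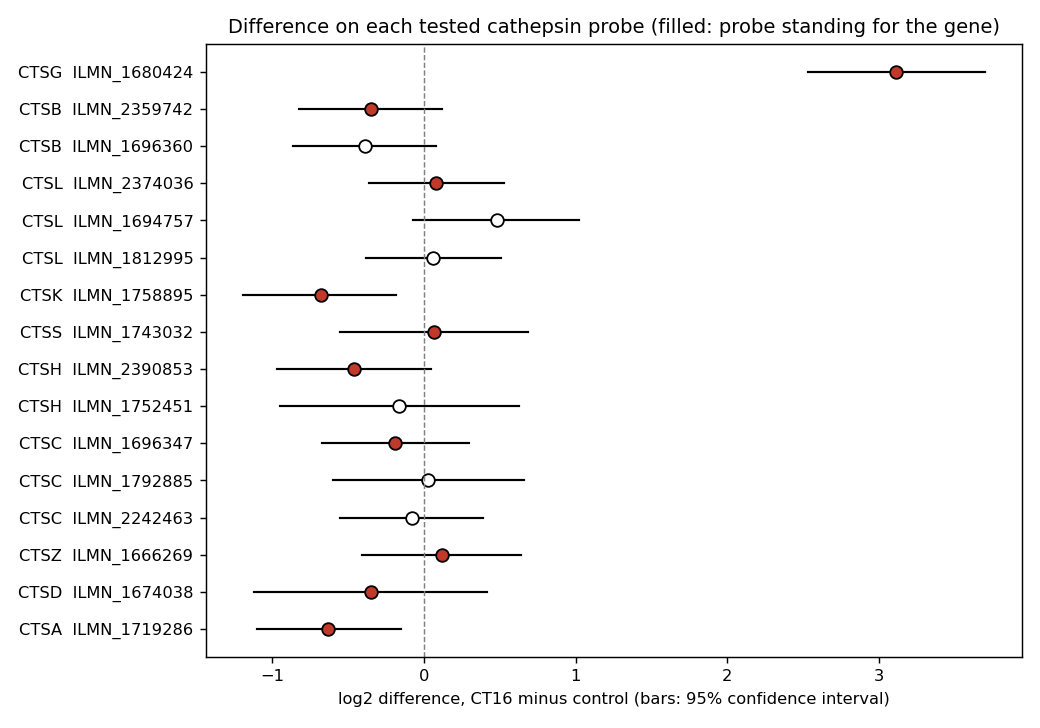
Log2 difference, CT16 minus control (horizontal axis), on each of the 16 tested cathepsin probes, with bars for the 95% confidence interval; filled points are the probes standing for their gene. The CTSG point lies at 3.11 and all others lie between -0.68 and 0.48. The intervals are not adjusted for the number of genes tested and are given as a description.

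By protease class, the cysteine cathepsins had a median difference of -0.19, with 4 of 7 negative, beside -0.35 for the aspartic CTSD and -0.63 for the carboxypeptidase CTSA. In the fit over all probes 0.240% of all genes (27 of 11264, 18 higher and 9 lower) were past an adjusted p of 0.05 (limma, Benjamini-Hochberg) and 6.41% were under an unadjusted p of 0.05. CTSG was among the 27 and no other member was, from which nothing is read, because that contrast chose the members. The CTSG difference stayed between 2.95 and 3.27 under 18 other ways of processing, drawn in the plot of settings, and it was 2.96 without CT16 replicate 3. It was no longer among the genes past the threshold without CT16 replicate 1 (3.13), control replicate 1 (3.27) or control replicate 2 (3.15), or with the replicate number as a block (3.11).

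**Figure D3:**
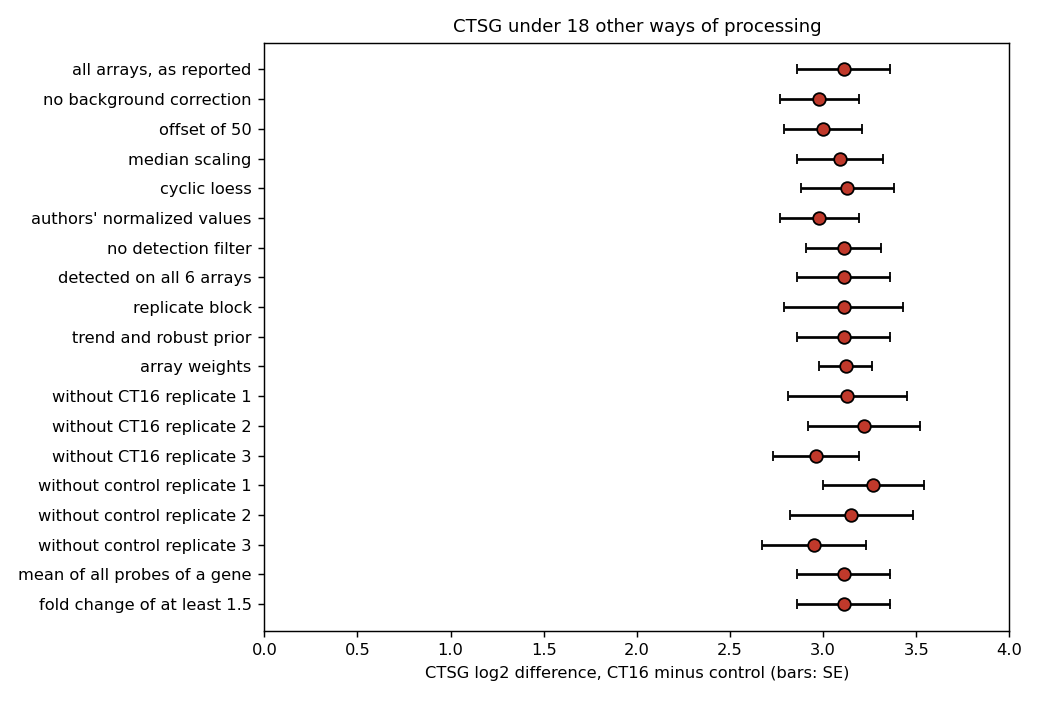
CTSG log2 difference, CT16 minus control (horizontal axis, from 0), as reported and under 18 other ways of processing, with bars for the SE. All points lie between 2.95 and 3.27.

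The genes whose values over the 6 arrays were most like those of CTSG were PSPH, C3, C1S, SERPINA5 and SERPINA3, with Pearson correlations of 0.998, 0.996, 0.996, 0.995 and 0.993 over 6 arrays. The arrays are shared and fall into the 2 groups, so a gene with a difference between the groups scores high on this measure. CTSG was chosen for that difference, so PSPH, C1S and SERPINA5 are given as a description, without a p. SERPINA3, also on a list, is described further on. PSPH, an enzyme of serine synthesis, gave 10.02, 10.00 and 10.01 in CT16 arrays, against 9.51, 9.49 and 9.40 in control arrays. Its difference was 0.54 ± 0.19 (SE) and did not pass the threshold. The complement gene C1S gave 8.56 to 8.74 in CT16 arrays, against 6.59 to 7.11 in control arrays, a difference of 1.77 ± 0.23 (SE). The complement gene C3 gave 6.62, 6.51 and 6.74 in CT16 arrays and was detected on none of the control arrays, so it reached the test through its CT16 arrays alone and no p is given. SERPINA5, the protein C inhibitor, was higher by 2.52 ± 0.24 (SE), with 8.52, 8.53 and 9.01 in CT16 arrays, against 6.38, 6.06 and 6.03 in control arrays. Under the 18 alternatives the C1S difference ranged from 1.49 to 1.87 and the SERPINA5 difference from 2.01 to 2.63. C1S did not pass the threshold in 10 of the 18 and SERPINA5 did not in 5. Among the members, the correlation with CTSG was 0.704 for CTSL and lay between -0.915 for CTSK and 0.212 for CTSZ for the others.

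Of 118 listed genes around the cathepsins that are no members, 78 were tested and 1 passed the threshold, SERPINA3, beside 0.240% of all genes. The 12 lists were drawn up with earlier results of these data known. SERPINA3 encodes alpha-1-antichymotrypsin, the main serum inhibitor of cathepsin G. Its log2 signals were 9.97, 9.88 and 10.53 in CT16 arrays, against 7.83, 7.17 and 6.87 in control arrays. It rose by 2.84 ± 0.32 (SE, 95% interval 2.09 to 3.58, limma, adjusted p = 0.0253), and no CT16 array overlapped a control array. SERPINA3 was also among the 5 genes most like CTSG, and its list was drawn up with earlier results known. This p is therefore given as a description and is no independent test. The adjusted p was over 0.05 in 8 of 18 alternatives. These were no detection filter, detection on all 6 arrays, the replicate block and 5 that each left out an array: without CT16 replicate 1 (2.92, adjusted p = 0.172), CT16 replicate 2 (2.98, 0.0635) and control replicates 1 (3.10, 0.0774), 2 (2.78, 0.223) and 3 (2.64, 0.132). The other inhibitors of cathepsin G did not pass. SERPINA1, alpha-1-antitrypsin, gave 0.45 ± 0.23 (SE, adjusted p = 0.898) and was detected on 3 CT16 arrays and 1 control array, A2M, the broad inhibitor alpha-2-macroglobulin, gave -0.11 ± 0.26, and SLPI was not detected on any array. The median of the 4 tested inhibitors was 0.19.

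**Figure D4:**
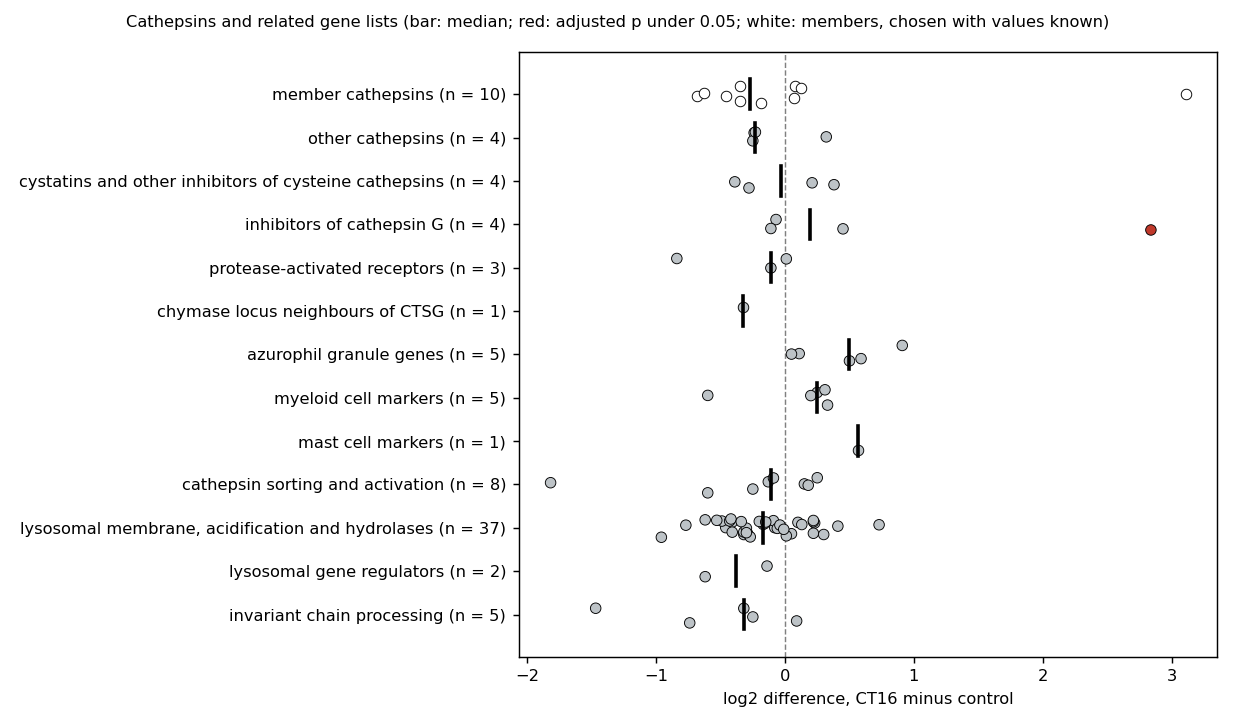
Log2 difference, CT16 minus control (horizontal axis), of each tested gene of the cathepsin family (white, top row) and of the 12 gene lists (grey, or red where the adjusted p was under 0.05), with the number tested in parentheses and a bar at each median. SERPINA3 at 2.84 is the red point, and SORL1 at -1.82 and CD74 at -1.47 are the points farthest to the left.

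Inhibitors of the cysteine cathepsins were read by 13 genes, of which 4 were tested, 2 with positive and 2 with negative differences and a median of -0.04. None passed, and 0 were under an unadjusted p of 0.05 (limma). CSTB, the cytosolic inhibitor cystatin B, gave 13.92, 13.94 and 13.74 in CT16 arrays, against 13.43, 13.44 and 13.58 in control arrays, with no overlap and a difference of 0.38 ± 0.20 (SE, adjusted p = 0.925). CST3, the secreted cystatin C, gave -0.28 ± 0.21 (SE), with no overlap after normalization but overlap in the signals before it. CST1, a salivary cystatin, gave -0.39 ± 0.37, and -0.11 without CT16 replicate 2 but -0.80 without CT16 replicate 3. Of the other cathepsins outside the 10, 4 of 5 were tested and 0 passed (limma, 0 at an unadjusted p under 0.05), with a median of -0.23. That median was -0.10 and -0.08 without CT16 replicates 1 and 2 and -0.12 and -0.01 without control replicates 1 and 3. CTSV and CTSF, both cysteine proteases, gave -0.25 ± 0.23 and -0.24 ± 0.30 (SE), CTSO gave 0.32 ± 0.27, and CTSW, known from lymphocytes, was not detected on any array.

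Cathepsin G can cleave protease-activated receptors, and 3 of the 4 receptor genes had a probe. None of the 3 passed the threshold (limma). F2RL2 was detected on none of the CT16 arrays but on all 3 control arrays, and was at least 1.25-fold lower in CT16 arrays. It reached the test through its control arrays alone, so no p is given. F2R, the thrombin receptor, gave -0.11 ± 0.21 and F2RL3 gave 0.01 ± 0.30 (SE), and the sign of each depended on the processing. F2R had 2 tested probes, of which the brighter stands for the gene. Its difference was -0.59 with the mean of all its probes.

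Of the neighbours of CTSG in the granule protease cluster, CMA1 and GZMB were not detected on any array. GZMH gave a difference of -0.33 ± 0.38 (SE, adjusted p = 0.959). Of 11 genes whose products share the azurophil granule with cathepsin G, 10 had a probe. ELANE, PRTN3, AZU1, MPO and RNASE2, which encode its elastase, proteinase 3, azurocidin, myeloperoxidase and a ribonuclease, were not detected on any array. Of the 5 that were tested, 5 had positive differences with a median of 0.50, beside 52.8% negative among all genes, 1 was under an unadjusted p of 0.05 and 0 passed the threshold (limma). CFD, complement factor D, gave 8.11, 8.20 and 9.40 in CT16 arrays, against 7.98, 7.47 and 7.52 in control arrays, a difference of 0.91 ± 0.38 (SE, adjusted p = 0.762) in which CT16 replicate 3 stood highest, and 0.49 without that array. BPI, a bactericidal protein, gave 0.50 ± 0.24 (SE, adjusted p = 0.878), with no overlap after normalization but overlap in the signals before it. DEFA4, a defensin, gave 0.59 ± 0.37, and 0.24 without CT16 replicate 3. The summed signal of the list was carried by SRGN, a granule proteoglycan that many cells make, with 2320, 2765 and 551 in CT16 arrays, against 1003, 1951 and 1880 in control arrays (named after its values were seen). The sum over all probes of the list was 2274 to 5762 in CT16 arrays and 2662 to 4139 in control arrays, so the groups overlapped. Without SRGN they did not. Over the brightest probe of each other gene, detected or not, the sum was 945, 1042 and 1235 in CT16 arrays 1 to 3. In control arrays 1 to 3 it was 863, 825 and 847. SRGN was left out after its values were seen, and this difference was not tested.

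Markers of cells that make cathepsin G in the body were read in the same way. Of 13 myeloid markers, 12 had a probe and 7 were not detected on any array, among them PTPRC, the general leukocyte marker CD45, and CSF1R, the macrophage growth factor receptor. The summed signal was 1911 to 2418 in CT16 arrays and 1818 to 2094 in control arrays. Another 4, CD14, FCGR3B, CSF3R and CEBPE, were detected on all arrays. Of the 5 tested, 4 had positive differences and 1 a negative one, beside 52.8% negative among all genes. Their median was 0.25, and 0.06 without CT16 replicate 3. None of the 5 passed, and 0 were under an unadjusted p of 0.05 (limma). ITGAM gave -0.60 ± 0.27, FCGR3B 0.25 ± 0.28 and CSF3R 0.20 ± 0.21 (SE). CD14 gave 0.33 ± 0.31 and CEBPE gave 0.31 ± 0.30 (SE), and both were 0.06 without CT16 replicate 3. Of the mast cell markers TPSAB1, CPA3 and HDC were not detected on any array, and KIT, which melanocytes also make, gave 0.57 ± 0.37, and 0.23 without CT16 replicate 3. Their summed signal was 396 to 407 in CT16 arrays and 366 to 387 in control arrays.

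Genes of cathepsin sorting and activation were tested for 8 of 9, with 3 positive and 5 negative differences and a median of -0.11. None passed, and 1 was under an unadjusted p of 0.05 (limma). That gene was SORL1, a sorting receptor of endosomes, with log2 signals of 6.37, 6.16 and 5.82 in CT16 arrays, against 8.26, 7.95 and 7.60 in control arrays. The groups lay well apart, and the difference was -1.82 ± 0.26 (SE, 95% interval -2.44 to -1.20), with an adjusted p of 0.0698 from limma. Without CT16 replicate 3 it was -1.68 (adjusted p = 0.0178), and without each other array the adjusted p was 0.16 to 0.528. LGMN, the legumain that processes several cathepsins to their mature forms, gave -0.25 ± 0.20 (SE). GNPTAB, a subunit of the enzyme that makes the mannose 6-phosphate tag, gave -0.60 ± 0.63, with 10.73 and 10.74 on CT16 replicates 1 and 2 but 8.41 on CT16 replicate 3, and its difference was 0.17 without that array.

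The lysosome beyond the cathepsins was read by 37 of 41 listed genes for its membrane, acidification and hydrolases, all of them detected on all arrays. The difference was negative for 26 and positive for 11, beside 52.8% negative among all genes, and the median was -0.17, which was -0.06 without control replicate 1 and -0.11 without CT16 replicate 3. None passed the threshold, and 6 of 37 were under an unadjusted p of 0.05, beside 6.41% of all genes (limma). GAA, the lysosomal glucosidase, gave -0.96 ± 0.38 (SE, adjusted p = 0.740), ARSB, a sulfatase, gave -0.77 ± 0.21 (adjusted p = 0.392), and IDS, another sulfatase, gave 0.73 ± 0.30 (adjusted p = 0.772). GAA was at -0.54 without control replicate 1, and IDS at 0.40 without CT16 replicate 3. The summed signal was 107998 to 136272 in CT16 arrays and 126356 to 141275 in control arrays, so the groups overlapped. Of the factors that read the E-box of lysosomal genes, MITF and TFE3 were tested, and TFEB and TFEC did not reach the number of detections needed. Neither passed, and 0 were under an unadjusted p of 0.05 (limma). TFE3 gave -0.14 ± 0.35 (SE). MITF, also the lineage factor of melanocytes, gave -0.62 ± 0.53, with 10.72 and 10.82 on CT16 replicates 1 and 2 but 8.90 on CT16 replicate 3, and its difference was 0.00 without that array.

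The invariant chain, which holds new MHC class II molecules until cathepsins cut it, is the best known substrate of cathepsin S. Its gene CD74 gave log2 signals of 10.09, 9.93 and 10.55 in CT16 arrays, against 11.93, 11.35 and 11.71 in control arrays. All CT16 arrays were below all control arrays, with a difference of -1.47 ± 0.27 (SE) and an adjusted p of 0.134 from limma. Without CT16 replicate 3 it was -1.62 (adjusted p = 0.0157), and without each other array the adjusted p was 0.315 to 0.591. HLA-DMA and HLA-DMB, whose product loads peptides after the chain is cut, gave -0.74 ± 0.26 (SE, adjusted p = 0.616) and -0.32 ± 0.24. Of the 5 genes of this list 4 had negative differences, with a median of -0.32, 2 were under an unadjusted p of 0.05 and 0 passed the threshold (limma).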

How the data were processed

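Biotin-labelled cRNA from 6 cultures was measured on 1-colour Illumina Human-6 bead arrays. The authors deposited intensities that were not normalized, with a detection p-value per probe (48804 rows, 48803 distinct probes, 1 repeated identifier averaged), and quantile normalized intensities, 99.998% of which lay within 1% of those computed here without background correction. The authors tested with the rank product algorithm, which was not run here. Here normexp background correction (nec in limma 3.58.1, R 4.3.3, offset 16) took its negative control mean and SD from the detection p-values, arrays were quantile normalized, and the 18156 probes detected on at least 3 of 6 arrays were fitted with 1 term for the plasmid (lmFit, eBayes, two-sided, Benjamini-Hochberg over all tested probes, threshold 0.05). A gene was represented by its brightest tested probe. Arrays give no read depth, and their number limits the precision.

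Genes were named from a platform annotation (27578 probes with 1 symbol, 13 with several, 27541 found in the RefSeq table of GRCh38.p14). Named were the members with all probes, per list every gene past the threshold and the largest differences up to 3, the 5 genes most like CTSG, and PAGE5. Members and lists were chosen with earlier results of these data known. Where no array of a group detected a probe, the fold is a bound against the dimmest detected signal. The script was checked on simulated data. The alternatives are given in the closing section.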

Additional observations from a re-analysis of the deposited data

How the results depend on the processing

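CTSG was chosen for its difference on these 6 arrays, so its values under the 18 alternatives are a description and no support for it. Over the left-out arrays it ranged from 2.95 to 3.27. The number of members past the threshold, 1 as reported, ranged from 0 to 1 over the left-out arrays, and that of the other listed genes, also 1, from 0 to 3. Over all genes the number, 27 as reported, ranged from 3 to 143, the highest without CT16 replicate 3, which gave 83 higher and 60 lower. With the replicate number as a block, CTSG was at 3.11, with 0 members, 0 listed genes and 3 genes in all past the threshold. The deviations of same-numbered arrays from their group means had correlations of -0.615, 0.611 and -0.584, which do not share a sign. They rest on 3 arrays per group, so whether the numbers pair the cultures cannot be told from them. With array weights the counts were 4 members (CTSA, CTSG, CTSH and CTSK), 18 listed genes and 1377 genes in all, from gene-by-gene weights, since the default estimate did not converge. Detection on all 6 arrays gave 0 listed genes and 4 genes in all, and no detection filter gave 0 listed genes. The authors' normalized values gave 14 higher and 4 lower genes. The signs of some small differences turned. F2RL3 was at -0.03 with median scaling, -0.05 with cyclic loess and -0.50 with array weights, and between -0.22 and 0.27 over the left-out arrays. F2R was at 0.01 with array weights, -0.59 with the mean of all its probes and between -0.17 and 0.01 over the left-out arrays, TFE3 between -0.53 and 0.06, A2M between -0.32 and 0.04, GZMH between -0.68 and 0.02 and MITF between -0.96 and 0.00. GNPTAB lay between -1.0 and 0.17. The cause of these shifts was not tested. Of the other 9 members, 157 of 162 values moved by less than the gene's own SD between arrays of a group, and their median ranged from -0.39 to -0.15, the value without control replicate 1. Of the named list genes, 517 of 553 values kept their direction and side of the threshold.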
